A study of Homo sapiens with 12 samples.

Results

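Collagen genes were taken as every gene whose symbol reads COL, a number, the letter A and a number, a pattern that 44 of the 33514 gene symbols in the count tables matched. They were followed in single-cell RNA sequencing (scRNA-seq, the droplet method of 10x Genomics, which tags the 3′ end of each captured RNA molecule) of SCC1, SCC6 and SCC25, 3 established lines of HNSCC, the squamous cell carcinoma of the head and neck. Cells of each line were given the EGFR-blocking antibody cetuximab (EGFR is the receptor for epidermal growth factor) at 100 nM every day for 5 days, or the salt solution PBS in its place, from 24 h after seeding. All 6 groups grew in DMEM and Ham's F12 with 10% fetal bovine serum, and each holds 2 replicates, which makes 12 samples. Each line is a culture of cancer cells without the fibroblasts, vessels and immune cells of a tumour. It is not clear whether the 2 replicates of a group were separate cultures or libraries of the same culture, so every SD, SE and p-value here covers the spread between these samples only.

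Collagens are proteins of the extracellular matrix in which 3 chains wind into a triple helix, and each gene encodes 1 chain. Fibrillar collagens such as types I, III and V build the fibres of connective tissue, type IV collagens form the sheet-like network of basement membranes, and types VII and XVII fasten epithelial cells to that membrane. Other members sit on fibril surfaces (the FACIT group), or form beaded filaments (type VI) or short chain networks (types VIII and X). The multiplexins carry long sugar side chains and lie at basement membranes. Squamous epithelium is known to make the basement membrane and anchoring collagens itself, and fibroblasts are known as the main source of types I and III.

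The samples held 961 to 2854 cells and 57057402 to 112170073 unique molecular identifiers (UMIs, 1 per captured molecule), of which 9405 to 54053 belonged to collagen genes. Levels are given as CPM, the usual scaling of a gene's UMIs to the total UMIs of its sample, which were not divided by gene length because only the 3′ end is counted. At least 7 of 9 squamous epithelial markers reached 1 CPM in both samples of every group; the exceptions were KRT5 and KRT14 in SCC6 PBS. The summed level of these markers was 7519 to 7738 CPM in SCC1 PBS and 12146 to 13089 in SCC1 cetuximab, 1667 to 1811 and 3485 to 4133 in SCC6, and 6986 to 11471 and 9004 to 14077 in SCC25. Of 7 fibroblast markers other than collagens, 1 (FAP) reached 1 CPM in both samples of the SCC1 groups, none in SCC6 PBS, 1 (PDGFRB) in SCC6 cetuximab and 3 (LUM, FAP and THY1) in the SCC25 groups. PDGFRA and DPT stayed under 1 CPM in every sample, as did all 3 endothelial markers, and DCN passed it in 3 samples, with 1.47 CPM in SCC1 cetuximab replicate 1, 1.67 in SCC25 PBS replicate 2 and 2.25 in SCC25 cetuximab replicate 2. Of 3 leukocyte markers, PTPRC and CD3E stayed under 1 CPM and CD68, which is not limited to leukocytes, was above it in all samples.

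Type IV collagen genes lie in pairs that share the stretch between their starts and are read in opposite directions, and these pairs carried much of what follows. COL4A1 and COL4A2 start 127 bases apart on chromosome 13, COL4A4 and COL4A3 start 136 bases apart on chromosome 2 by the outer end of COL4A4, and COL4A6 and COL4A5 start 380 bases apart on the X chromosome. Another start listed for COL4A4 lies 419 bases from COL4A3, and another for COL4A6 1416 bases from COL4A5. The stretches shown are from the first 2 pairs, whose 4 genes rose in SCC6, from the third pair, which had no UMI there, and from COL5A1, the fibrillar chain with the highest level in SCC6 cetuximab; they were read from the RefSeq promoter table for GRCh38.p14, on the plus strand. The first lies between the COL4A1 and COL4A2 starts at chr13:110307158-110307283. The second lies between the outer end of COL4A4 and the COL4A3 start (chr2:227164489-227164623), the third the 250 bases before the first of the 2 COL5A1 starts (chr9:134641553-134641802), and the last the 250 bases before the COL4A5 start (chrX:108439588-108439837). Capitals mark 2 short motifs, the CCAAT box and the GC box with the letters GGGCGG, each read on both strands.
COL4A1 and COL4A2: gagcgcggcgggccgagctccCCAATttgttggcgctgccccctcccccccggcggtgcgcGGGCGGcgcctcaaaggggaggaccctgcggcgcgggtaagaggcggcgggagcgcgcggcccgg
COL4A4 and COL4A3: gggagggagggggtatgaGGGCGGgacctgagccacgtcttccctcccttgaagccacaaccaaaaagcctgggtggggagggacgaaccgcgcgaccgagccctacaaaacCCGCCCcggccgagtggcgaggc
COL5A1: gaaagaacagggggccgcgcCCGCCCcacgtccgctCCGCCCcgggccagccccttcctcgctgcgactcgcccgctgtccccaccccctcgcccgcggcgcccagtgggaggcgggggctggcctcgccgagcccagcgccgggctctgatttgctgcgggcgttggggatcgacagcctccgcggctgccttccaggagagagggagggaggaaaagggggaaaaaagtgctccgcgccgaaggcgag
COL4A5: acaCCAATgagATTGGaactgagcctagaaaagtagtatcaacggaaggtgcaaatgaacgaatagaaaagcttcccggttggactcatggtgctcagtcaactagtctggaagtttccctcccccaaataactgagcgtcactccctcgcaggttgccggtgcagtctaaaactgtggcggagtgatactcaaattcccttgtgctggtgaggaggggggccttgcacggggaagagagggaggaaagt

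The COL4A1 and COL4A2 stretch held 80.2% G and C, the COL4A4 and COL4A3 stretch 68.1%, the COL5A1 stretch 74.0% and the COL4A5 stretch 51.2%. GGGCGG was found in 24 of the 44 promoters listed for 32 collagen genes, against 42.6% of all 35116 promoters over the same 250 bases, and CCAAT in 12 of 44, against 32.0%. TATAAA was in 8 of the 44, against 10.7% of all promoters. The letters TGANTCA, the AP-1 motif, were in 1, against 6.57%, and GGAATG, the TEAD motif, in 3, against 11.9%. All were searched on both strands. The motifs marked do not overlap within the stretches shown, and a match describes the sequence only.

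Which collagens were expressed differed by line. With expression set at 1 CPM or more in both samples of a group, 17 of the 44 genes were expressed in SCC1 PBS, 12 in SCC6 PBS and 20 in SCC25 PBS, and 18, 16 and 22 with cetuximab. The 10 genes expressed in every group were COL4A1 and COL4A2 of the basement membrane network, the fibrillar COL5A1 and COL27A1, COL7A1 of anchoring fibrils, the fibril-associated COL9A2, COL12A1 and COL16A1, the transmembrane COL17A1 of hemidesmosomes, and COL18A1, whose product includes the fragment endostatin. In at least 1 group 24 genes were expressed, and the other 20 in none, among them COL2A1 and COL11A1 of cartilage. No UMI was found for COL6A6 and COL25A1 in any sample.

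**Figure D1:**
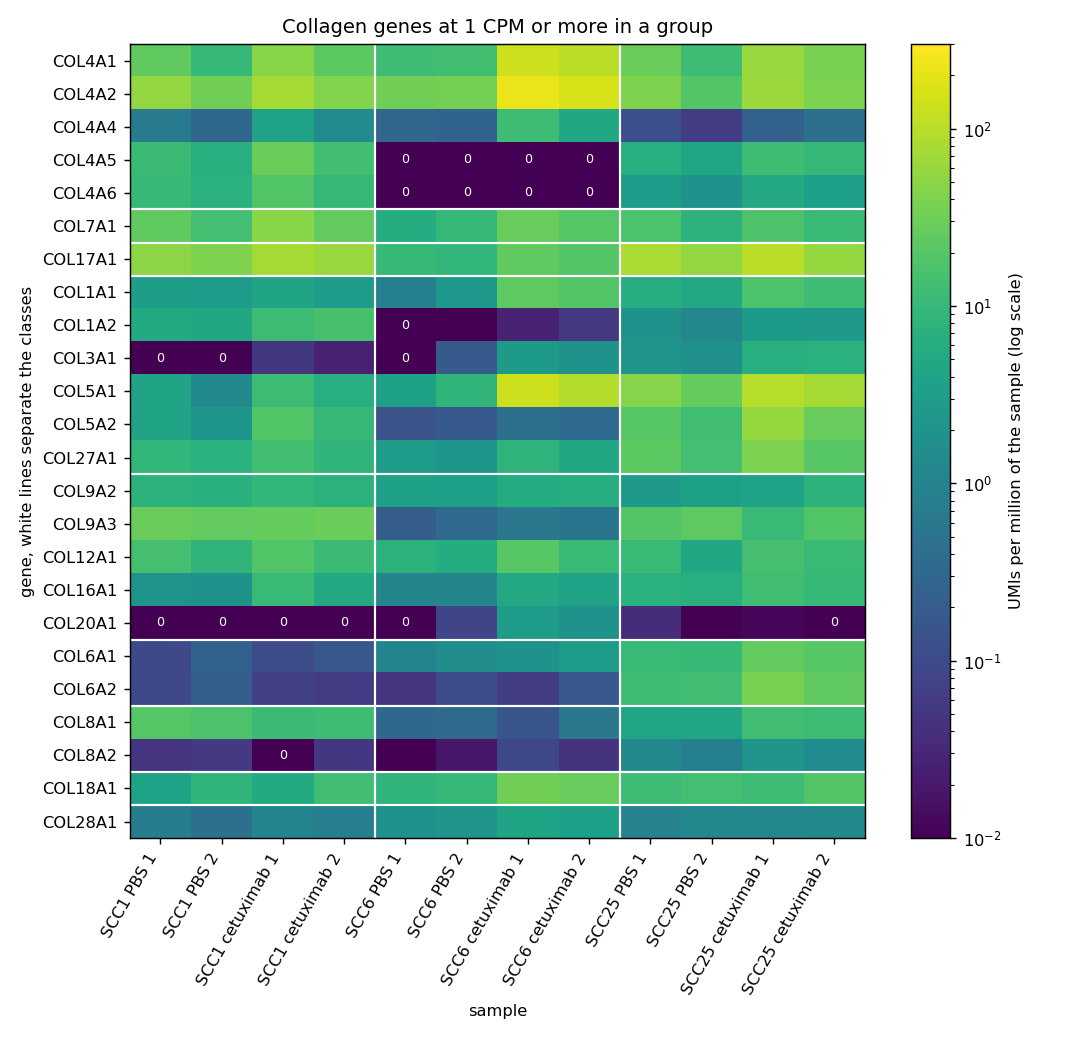
Heat map of the 24 collagen genes expressed in at least 1 group (rows, ordered by class) in the 12 samples (columns), coloured by CPM on a log scale; 0 marks a sample without a UMI. COL4A5 and COL4A6 are at 0 in all 4 SCC6 samples, COL6A2 is high in SCC25 only, and COL4A1 and COL4A2 are highest in the SCC6 cetuximab samples.

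COL17A1, which links the keratin skeleton of basal epithelial cells to the basement membrane, had the highest mean level in SCC1 and SCC25 over the 4 samples of a line. It made up 18.4% of collagen CPM in SCC1 and 18.1% in SCC25 (mean CPM of the 4 samples of a line), but 4.57% in SCC6. In SCC6, COL4A2 led with 33.3%, followed by COL4A1 with 19.6% and COL5A1 with 17.4%. These SCC6 shares rest mostly on the cetuximab samples described further on, and the first place of COL17A1 is not clear within each treatment. In SCC25 cetuximab, COL5A1 had 95.5 and 74.0 CPM and COL17A1 102 and 59.9. In SCC1 PBS, COL4A2 had 55.8 and 31.6 CPM and COL17A1 49.2 and 40.4, so the samples of both pairs overlapped. In SCC1 the ranking went on with COL4A2 (16.7%), COL7A1 (9.11%), COL9A3 (9.03%), COL4A1 (8.58%), COL4A5 (4.97%), COL8A1 (4.95%) and COL12A1 (4.36%). The SCC25 ranking went on with COL5A1 (14.6%), COL4A2 (9.91%), COL4A1 (8.47%), COL5A2 (7.20%), COL27A1 (5.84%), COL6A2 (5.14%) and COL9A3 (4.28%). After COL5A1, SCC6 had COL18A1 (5.74%), COL7A1 (4.62%), COL17A1, COL1A1 (3.34%) and COL12A1 (3.30%).

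The PBS samples were compared to ask which collagens set the untreated lines apart. UMI counts were summed per sample, and edgeR's quasi-likelihood F-test was run on the sums with adjustment over all 17897 genes tested (Benjamini-Hochberg FDR, threshold 0.05); 36 of the 44 collagens had counts enough to be tested. Between SCC6 and SCC1, 17 of 36 collagens differed, 8 higher and 9 lower in SCC6, where 40.2% of all genes tested differed (21.5% higher and 18.6% lower). Between SCC25 and SCC1 22 differed, 16 of them higher in SCC25 (40.8% of all genes, 23.4% higher). Between SCC25 and SCC6 21 differed, 20 of them higher in SCC25 (40.9% of all genes, 22.2% higher). The median log2 fold change over the 36 collagens was -0.44 for SCC6 minus SCC1, 1.15 for SCC25 minus SCC1 and 2.03 for SCC25 minus SCC6, while the medians of all genes tested were 0.00, 0.04 and 0.00.

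Among the chains of the basement membrane network, COL4A5 and COL4A6 separated SCC6 from the other lines. COL4A5, a chain known from Alport syndrome, had 11.3 and 6.31 CPM in the SCC1 PBS samples and 6.45 and 4.49 in SCC25 PBS. COL4A6, its neighbour and partner, had 10.1 and 7.14 CPM in SCC1 PBS and 3.03 and 1.93 in SCC25 PBS. Neither gene had a single UMI in any SCC6 sample, where 3 counts over the group, the limit that a count of 0 allows, would be 0.0148 CPM among the 203157349 UMIs of SCC6 PBS. COL4A5 was therefore at least 595-fold higher in SCC1 PBS and at least 370-fold higher in SCC25 PBS than in SCC6 PBS, and COL4A6 at least 585-fold and 168-fold higher (edgeR FDR 2.38e-05, 3.58e-05, 1.45e-05 and 4.09e-05). COL4A6 was also lower in SCC25 than in SCC1 (log2 fold change -1.61 ± 0.37 SE, FDR 0.0096), as was COL4A4 (-2.22 ± 0.71, FDR 0.0288). The COL4A6 call was lost without SCC1 PBS replicate 1 (FDR 0.0546) or SCC25 PBS replicate 2 (FDR 0.0598), and the COL4A4 call without SCC1 PBS replicate 1 (FDR 0.145) or either SCC25 PBS sample (FDR 0.0579 and 0.152). COL4A1 and COL4A2 did not pass the test between any of the untreated lines.

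The type VI chains COL6A1 and COL6A2, which assemble together with COL6A3 into beaded filaments, were a feature of SCC25. COL6A2 had 12.2 and 12.5 CPM in SCC25 PBS, 0.0960 and 0.228 in SCC1 PBS, and 0.0498 and 0.107 in SCC6 PBS. COL6A1 had 10.3 and 10.1 CPM in SCC25 PBS, 0.0960 and 0.250 in SCC1 PBS, and 1.06 and 1.55 in SCC6 PBS. For both genes the SCC25 samples lay above those of the other lines, while SCC1 and SCC6 overlapped for COL6A2. COL6A2 was higher in SCC25 than in SCC1 (log2 fold change 6.35 ± 0.48, FDR 9.16e-06) and SCC6 (7.13 ± 0.51, FDR 5.97e-06), and COL6A1 was higher than in SCC1 (5.98 ± 0.45, FDR 9.19e-06) and SCC6 (2.83 ± 0.37, FDR 0.000246). COL6A3, which encodes the longest of these chains, had 41 UMIs in all 12 samples and was not tested.

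Among fibrillar collagens, COL1A2 stood apart in the opposite way. COL1A2, the second chain of type I collagen, had 5.37 and 4.56 CPM in SCC1 PBS and 1.89 and 1.17 in SCC25 PBS, but 0 and 0.00973 in SCC6 PBS, a single UMI. It was lower in SCC25 than in SCC1 (-1.52 ± 0.31, FDR 0.00347), and lower in SCC6 than in both (FDR 2.08e-06 and 7.46e-06; no fold is given against 1 UMI). COL1A1, the other chain, was present in all 3 lines, at 3.09 and 2.92 CPM for SCC1, 0.857 and 2.46 for SCC6 and 6.23 and 4.99 for SCC25. It was higher in SCC25 than in SCC6 (1.63 ± 0.39, FDR 0.00732) and SCC1 (1.09 ± 0.38, FDR 0.0423). The difference from SCC1 passed in 12 of 20 alternatives and was lost when any of the 4 PBS samples of SCC25 and SCC1 was left out (FDR 0.0769 to 0.158), and also without either SCC1 or either SCC6 cetuximab sample (FDR 0.0530 to 0.0552). COL3A1, the chain of type III collagen, had 2.11 and 1.76 CPM in SCC25, 0 and 0.185 in SCC6 and no UMI in SCC1 PBS, and was higher in SCC25 than in both other lines.

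Type V collagen, which is known to start and limit the width of type I fibrils, was highest in untreated SCC25. COL5A1 had 46.3 and 25.8 CPM there, 3.50 and 8.59 in SCC6 PBS and 4.06 and 1.33 in SCC1 PBS. It was higher in SCC25 than in SCC1 (3.96 ± 0.58, FDR 0.000498) and SCC6 (2.44 ± 0.54, FDR 0.00517), and higher in SCC6 than in SCC1 (1.52 ± 0.54, FDR 0.0437), although the samples of the latter 2 lines overlapped. That last difference passed in 13 of 20 alternatives; it was 0.80 without SCC6 PBS replicate 2 (FDR 0.317) and 0.96 without SCC1 PBS replicate 2 (FDR 0.242), and was also lost with thinned totals or without any of the SCC6 or SCC25 cetuximab samples (FDR 0.0506 to 0.0523). Its partner COL5A2 had 20.7 and 12.7 CPM in SCC25, 4.08 and 2.24 in SCC1, and 0.139 and 0.185 in SCC6, and all 3 differences passed the test. SCC6 thus held COL5A1 with COL5A2 under 1 CPM and COL1A1 without COL1A2. COL27A1 was higher in SCC25 than in SCC1 (1.33 ± 0.38, FDR 0.0186) and SCC6 (2.65 ± 0.40, FDR 0.000603), and lower in SCC6 than in SCC1 (-1.32 ± 0.39, FDR 0.0207). Both COL27A1 differences from SCC1 were lost without either SCC1 PBS sample, and without SCC25 PBS replicate 1 and SCC6 PBS replicate 2, respectively (FDR 0.0740 to 0.112 and 0.0568 to 0.124).

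Of the collagens that tie epithelium to its membrane, COL17A1 had 81.9 and 55.5 CPM in SCC25 PBS, 49.2 and 40.4 in SCC1 PBS, and 10.0 and 9.15 in SCC6 PBS. The 3 lines did not overlap. COL17A1 was higher in SCC25 than in SCC1 (0.81 ± 0.27, FDR 0.0381) and SCC6 (2.68 ± 0.29, FDR 7.32e-05), and lower in SCC6 than in SCC1 (-1.88 ± 0.28, FDR 0.000514). The difference of SCC25 from SCC1 was lost without either SCC1 PBS sample, SCC25 PBS replicate 1 or either SCC1 cetuximab sample (FDR 0.0518 to 0.203). COL7A1, the anchoring fibril chain lost in dystrophic epidermolysis bullosa, had 23.9 and 13.8 CPM in SCC1 PBS, 16.2 and 7.92 in SCC25 PBS and 6.02 and 9.45 in SCC6 PBS. No difference between lines passed the test for COL7A1 (with a term for the replicate number, SCC6 was lower than SCC1 at FDR 0.0345; over 20 alternatives 0.0345 to 0.428).

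COL9A3, a fibril-associated chain known from cartilage, had 28.3 and 25.0 CPM in SCC1 PBS, 19.2 and 23.0 in SCC25 PBS, and 0.209 and 0.340 in SCC6 PBS. It was lower in SCC6 than in SCC1 (-6.26 ± 0.37, FDR 1.89e-06) and lower than in SCC25 (FDR 2.39e-06). COL9A2 was lower in SCC25 than in SCC1 (-1.06 ± 0.33, FDR 0.0271), a call lost without either SCC1 PBS sample or SCC25 PBS replicate 1 (FDR 0.0823 to 0.153). COL16A1 was higher in SCC25 than in SCC1 (1.95 ± 0.32, FDR 0.000957) and SCC6 (2.48 ± 0.33, FDR 0.000262). COL8A1, a chain of short chain networks, had 19.5 and 17.0 CPM in SCC1 PBS, 4.22 and 4.42 in SCC25 PBS, and 0.309 and 0.350 in SCC6 PBS. The order SCC1, SCC25, SCC6 held at each step for COL8A1, with SCC25 lower than SCC1 (-1.88 ± 0.38, FDR 0.0031) and higher than SCC6 (3.57 ± 0.43, FDR 0.000147).

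The other collagens that passed between untreated lines were low. COL28A1 was higher in SCC6 than in SCC1 (2.07 ± 0.32, FDR 0.000618) at 1.91 and 2.16 CPM, and SCC25 lay between them, lower than SCC6 (-1.05 ± 0.30, FDR 0.0194) and higher than SCC1 (1.02 ± 0.32, FDR 0.0259). COL2A1 was lower than in SCC1 in both SCC6 (-3.68 ± 0.66, FDR 0.0015) and SCC25 (-2.17 ± 0.58, FDR 0.0136). COL8A2, with 1.21 and 0.856 CPM in SCC25 PBS, and the transmembrane COL13A1, with 1.12 and 0.883, were higher there than in both other lines, where COL8A2 stayed at or under 0.0544 CPM and COL13A1 at or under 0.438. COL13A1 was also higher in SCC6 than in SCC1 (FDR 0.000241). COL5A3, COL22A1 and COL23A1 were higher in SCC25 than in both other lines, with at most 0.358, 0.630 and 0.285 CPM. COL21A1 was higher than in SCC1 in both SCC25 and SCC6, COL10A1 higher in SCC25 than in SCC6, and COL15A1, COL26A1 and COL3A1 higher in SCC6 than in SCC1, all with a line of 0 or 1 UMI on the lower side. Among these low collagens, leaving out 1 PBS sample ended the calls of COL28A1 for SCC25 against SCC6 (all but SCC25 PBS replicate 2, FDR 0.0523 to 0.116) and of COL28A1 and COL2A1 for SCC25 against SCC1 (replicate 2 of either line, FDR of 0.148 or more and 0.0959 or more). It ended those of COL21A1 (replicate 1 of either line, FDR 0.0786 to 0.0897) and COL26A1 (all but SCC6 PBS replicate 2, FDR 0.0919 to 0.126) for SCC6 against SCC1. COL13A1 for SCC25 against SCC6 passed in 11 of 20 alternatives and COL10A1 in 10 of 18, and both were lost without either SCC6 PBS sample or SCC25 PBS replicate 2 (FDR 0.0654 to 0.172 and 0.134 to 0.250). All 19 COL3A1 UMIs of SCC6 PBS were in replicate 2, and the difference from SCC1 passed in 13 of 20 alternatives and had an FDR of 1.00 without that sample. With a term for the replicate number, the calls among collagens were 19, 23 and 23 for SCC6 minus SCC1, SCC25 minus SCC1 and SCC25 minus SCC6 (53.8%, 54.7% and 54.4% of all genes tested), the added ones being COL7A1 and COL18A1, COL18A1, and COL4A4 and COL15A1.

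Cetuximab was compared with PBS within each line to ask which collagens the treatment changed. In SCC6, summed collagen levels were 93.7 and 107 CPM with PBS and 676 and 483 with cetuximab, which is 5.78 times the PBS mean. In SCC1 they were 279 and 198 CPM with PBS and 437 and 298 with cetuximab (1.54 times), and in SCC25 362 and 245 with PBS and 614 and 434 with cetuximab (1.73 times). Both cetuximab samples lay above both PBS samples in each line, narrowly in SCC1. Summed over cells, a higher level in more cells and a higher level per cell cannot be told apart.

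**Figure D2:**
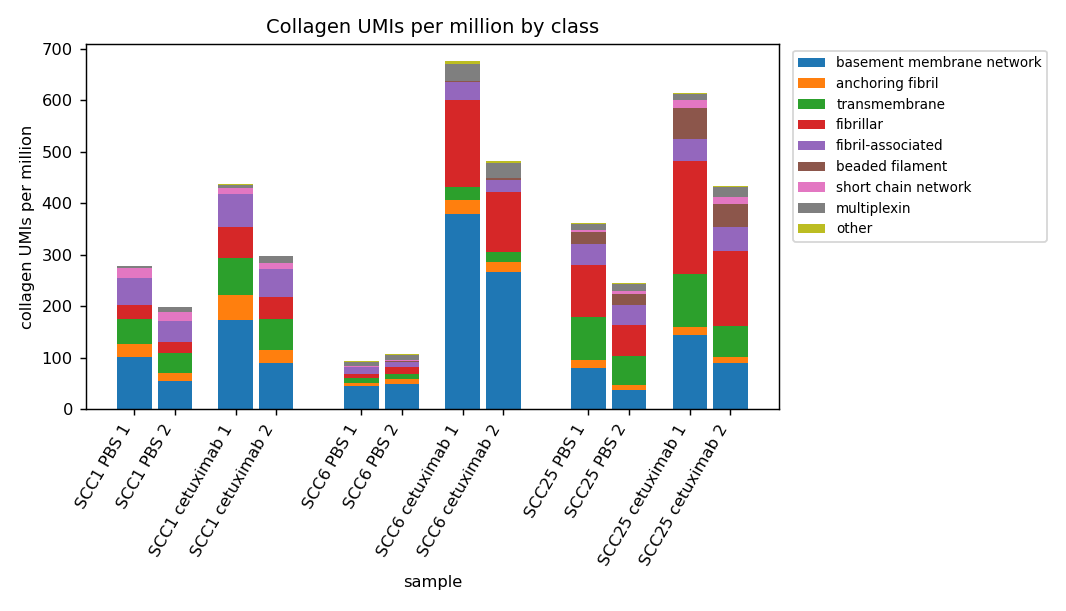
Stacked bars of summed CPM by collagen class (y axis, from 0) in each of the 12 samples (x axis). The SCC6 bars grow from 93.7 and 107 CPM with PBS to 676 and 483 with cetuximab, mostly by the basement membrane network and fibrillar classes.

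In SCC6, the basement membrane network collagens went from 44.8 and 48.3 CPM with PBS to 379 and 267 with cetuximab, 6.93 times the PBS mean. The fibrillar collagens went from 7.68 and 14.1 CPM to 170 and 117, 13.2 times. The multiplexins stood at 3.34 times their PBS mean, COL7A1 at 3.06, the fibril-associated collagens at 2.46, the transmembrane collagens at 2.17 and the beaded filament collagens at 1.82. No collagen class of SCC6 had a lower mean with cetuximab.

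In SCC6, 9 of 36 tested collagens rose with cetuximab and none fell, while 3.81% of all genes tested were called (2.51% higher and 1.30% lower). The median log2 fold change of the 36 collagens was 1.40, against 0 for all genes tested. In 27 of 36 collagens both cetuximab samples lay above both PBS samples and in 1 below, against 37.4% and 11.6% of all genes. By class, 4 of 6 basement membrane chains, 3 of 10 tested fibrillar chains and 2 of 7 tested fibril-associated chains rose. Samples of equal replicate number deviated together in every line, and with a term for the replicate number in the fit (the replicate block) 18 of 36 collagens rose and none fell, while 20.1% of all genes were called (9.94% higher).

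COL4A1 and COL4A2, the chains of the common basement membrane network that share the first stretch printed above, rose together. COL4A1 had 12.4 and 13.2 CPM in SCC6 PBS and 139 and 101 with cetuximab. COL4A2 had 32.0 and 34.9 CPM with PBS and 225 and 160 with cetuximab. The cetuximab samples lay far above the PBS samples for both genes, with cetuximab replicate 1 the higher. The cells of that sample were shallower, with a median of 24078.5 UMIs and 4556.5 genes, against 50156 and 6402 in cetuximab replicate 2. The part of this difference in depth was not tested. The log2 fold change was 3.00 ± 0.52 for COL4A1 (FDR 0.0163) and 2.30 ± 0.41 for COL4A2 (FDR 0.0183). Over 22 alternative fits the FDR ranged from 4.46e-07 to 0.160 for COL4A1 and from 7.00e-06 to 0.172 for COL4A2, with 19 of 22 under the threshold for each, the replicate block among them (0.000151 and 0.00041). Both calls were lost without SCC6 PBS replicate 1, SCC6 PBS replicate 2 or SCC6 cetuximab replicate 1.

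The second pair of type IV chains, COL4A3 and COL4A4, known from the glomerular basement membrane, rose from near 0. COL4A4 had 0.299 and 0.282 CPM in SCC6 PBS and 12.4 and 4.87 with cetuximab. COL4A3 had 0.0498 and 0.00973 CPM with PBS and 1.97 and 0.545 with cetuximab. Here too replicate 1 was the higher of the cetuximab samples. The log2 fold change was 4.65 ± 0.64 for COL4A4 (FDR 0.00829) and 5.10 ± 1.09 for COL4A3 (FDR 0.0326). The COL4A4 call was lost without SCC6 PBS replicate 1 (FDR 0.101), and the COL4A3 call without either SCC6 PBS sample, SCC6 cetuximab replicate 1 or either SCC1 PBS sample (FDR 0.0544 to 0.209). The third pair, COL4A5 and COL4A6, had no UMI with cetuximab either, among 165998266 UMIs (limit 0.0181 CPM).

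COL5A1 and COL1A1 led the fibrillar chains. COL5A1 had 3.50 and 8.59 CPM in SCC6 PBS and 135 and 90.1 with cetuximab, a log2 fold change of 4.0 ± 0.58 (FDR 0.00851; without SCC6 PBS replicate 1 0.104 and without SCC6 cetuximab replicate 1 0.0549). COL1A1 had 0.857 and 2.46 CPM with PBS and 23.1 and 18.9 with cetuximab, a log2 fold change of 3.45 ± 0.41 (FDR 0.00631). COL1A1 was the one SCC6 collagen past the threshold in all 22 alternative fits (FDR 2.41e-14 to 0.0380). COL3A1 had 0 and 0.185 CPM with PBS and 2.71 and 2.02 with cetuximab (4.44 ± 0.80, FDR 0.0214). All of its PBS UMIs were in replicate 2, so this fold depends on that sample: leaving out 1 sample moved it from 3.48 to 10.64 and the call was lost without SCC6 PBS replicate 1 (FDR 0.0550), without SCC6 cetuximab replicate 1 (FDR 0.115) or in a fit of SCC6 alone (FDR 0.0717). The partner chains stayed low: COL1A2 had at most 0.0556 CPM in any SCC6 sample, and COL5A2 had 0.139 and 0.185 CPM with PBS and 0.447 and 0.333 with cetuximab (FDR 0.321).

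Among the fibril-associated collagens of SCC6, COL16A1 had 1.11 and 1.10 CPM with PBS and 5.03 and 3.78 with cetuximab (1.76 ± 0.32, FDR 0.019; without SCC6 cetuximab replicate 1 or either SCC6 PBS sample 0.0628 to 0.156). COL20A1 had 0 and 0.0876 CPM with PBS and 2.82 and 1.89 with cetuximab (5.48 ± 0.93, FDR 0.0211), and did not pass in DESeq2 (FDR 0.147; over 22 alternatives 7.52e-06 to 0.147). Its 9 PBS UMIs were all in replicate 2, and leaving out 1 sample moved its log2 fold change from 4.54 to 10.63, with the call lost without SCC6 PBS replicate 1 (FDR 0.104) or SCC6 cetuximab replicate 1 (FDR 0.119). COL20A1 stayed at or under 0.0371 CPM in all SCC1 and SCC25 samples. Leaving out SCC6 PBS replicate 1 left 1 collagen called in SCC6 (COL1A1), leaving out SCC6 cetuximab replicate 1 left 2 (COL1A1 and COL4A4), and leaving out SCC6 PBS replicate 2 left 5.

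The replicate block added 9 collagens in SCC6. DESeq2 without a block called 11 of 35 collagens there and 1671 of all genes, and COL17A1, COL18A1 and COL7A1 were among the 11. COL17A1 had 10.0 and 9.15 CPM with PBS and 24.3 and 18.7 with cetuximab (0.93 ± 0.28, FDR 0.094, with the block 0.00394). COL18A1 had 8.55 and 9.74 CPM with PBS and 32.6 and 27.0 with cetuximab (1.48 ± 0.46, FDR 0.109, with the block 0.000896). COL7A1 had 6.02 and 9.45 CPM with PBS and 27.7 and 19.6 with cetuximab (1.39 ± 0.42, FDR 0.102, with the block 0.00562). All 3 had cetuximab samples clear of the PBS samples. The others were COL27A1 (with the block 0.00486), COL15A1 (0.0064), COL12A1 (0.0134), COL26A1 (0.0283), COL6A1 (0.0406) and COL5A2 (0.042), with FDRs from 0.108 to 0.335 without it. Over the 22 alternatives the highest FDR of these 9 genes was between 0.408 and 0.804.

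The summed squamous markers of SCC6, given above, also stood higher with cetuximab, but not every member did. KRT17 had 770 and 440 CPM with PBS and 2006 and 2449 with cetuximab. EPCAM had 153 and 266 CPM with PBS and 101 and 231 with cetuximab. Its samples, and those of CDH1 and SFN, overlapped between the treatments. Of the fibroblast markers, PDGFRB had 0.0299 and 0.0584 CPM with PBS and 1.34 and 1.37 with cetuximab. The summed fibroblast markers of SCC6 were 0.159 to 0.720 CPM with PBS and 2.18 to 2.37 with cetuximab, with PDGFRA and DPT under 1 CPM. VIM, an intermediate filament gene of mesenchymal cells, had 28.0 and 82.9 CPM with PBS and 859 and 809 with cetuximab. Their part in the collagen levels was not tested.

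**Figure D3:**
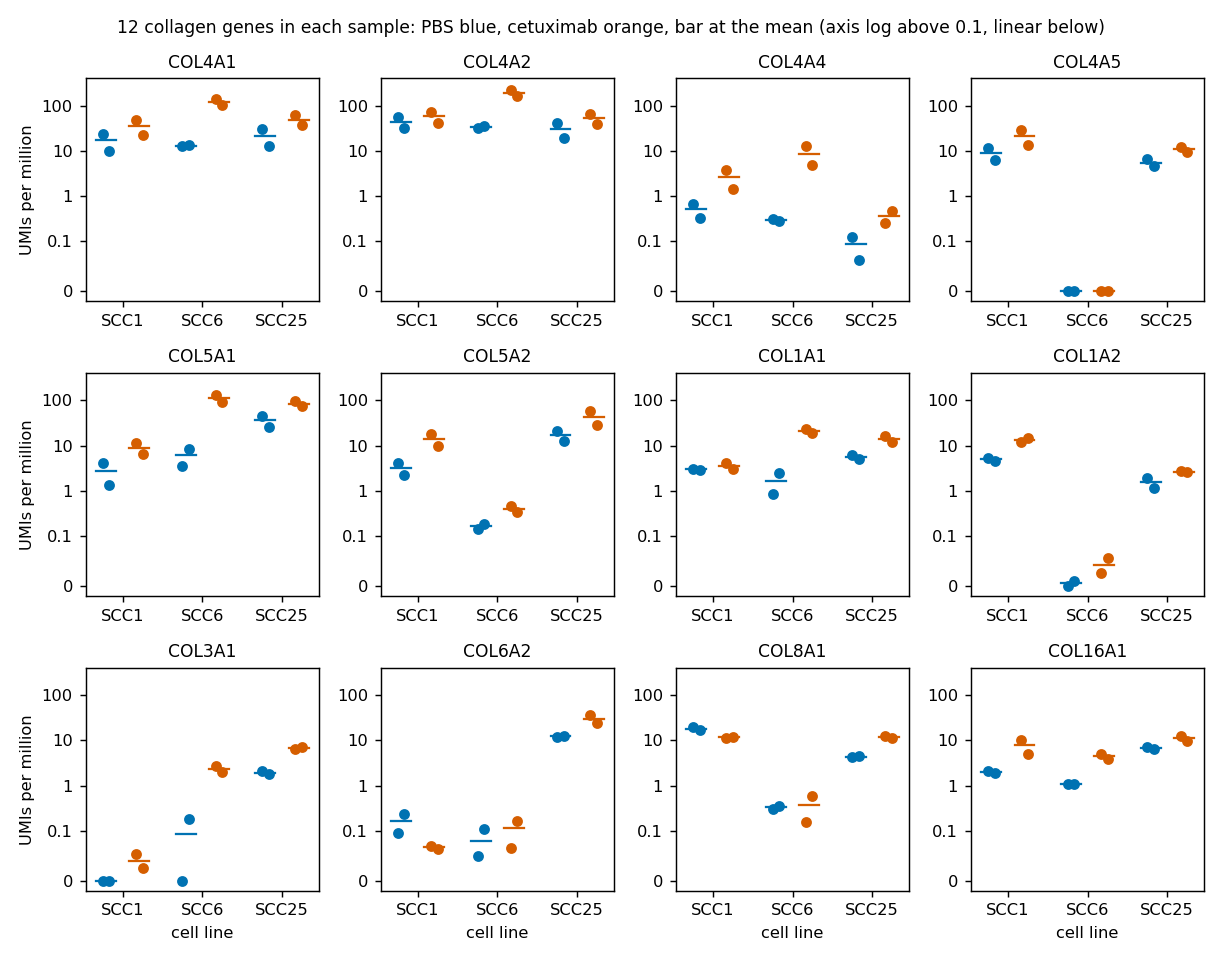
CPM (y axis, linear near 0 and logarithmic above) of 12 collagen genes in every sample, with the line and treatment on the x axis and 1 point per replicate. In SCC6 the cetuximab points of COL4A1, COL4A2, COL4A4, COL5A1, COL1A1, COL3A1 and COL16A1 lie clear above the PBS points, and COL4A5 lies at 0.

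In SCC1, none of the 36 tested collagens passed the threshold of edgeR (0.0168% of all genes tested did), 10 had an unadjusted p under 0.05, and DESeq2 called 4 (COL16A1, COL5A2, COL1A2 and COL4A4; 1.77% of all genes). With the replicate block 8 rose and none fell, where 4.45% of all genes were called (2.46% higher): 4 of 6 basement membrane chains, 3 of 10 fibrillar chains and COL16A1. The median log2 fold change of the collagens was 0.37, against 0.00 for all genes. In 13 of 36 collagens both cetuximab samples lay above both PBS samples and in 3 below, against 24.7% and 17.3% of all genes.

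COL16A1 had 2.08 and 1.93 CPM in SCC1 PBS and 10.5 and 5.06 with cetuximab, a log2 fold change of 1.90 ± 0.32 (FDR 0.0969, with the block 0.012). It was called when SCC1 cetuximab replicate 2 was left out, as the only collagen. COL5A2 had 4.08 and 2.24 CPM with PBS and 18.3 and 9.69 with cetuximab (2.11 ± 0.43, FDR 0.163, with the block 0.00232). COL1A2 had 5.37 and 4.56 CPM with PBS and 11.8 and 14.9 with cetuximab (1.38 ± 0.31, FDR 0.195, with the block 0.0161). The groups did not overlap for these 3 genes, and COL1A2 was the only one higher in cetuximab replicate 2. COL1A1, its partner, had 3.09 and 2.92 CPM with PBS and 4.14 and 3.01 with cetuximab (0.20 ± 0.38, FDR 0.998).

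Of the type IV chains of SCC1, COL4A4 had 0.672 and 0.326 CPM with PBS and 3.73 and 1.42 with cetuximab (2.34 ± 0.59, FDR 0.243, with the block 0.0169). COL4A5 had 11.3 and 6.31 CPM with PBS and 29.5 and 13.2 with cetuximab (1.24 ± 0.40, FDR 0.406, with the block 0.0153). COL4A1 had 23.9 and 9.96 CPM with PBS and 47.8 and 22.3 with cetuximab, so that the groups overlapped while both pairs of equal replicate number went up (1.02 ± 0.49, FDR 0.609, with the block 0.0161). COL4A3 (3.24 ± 1.07, with the block 0.0289) and COL5A1 (1.72 ± 0.54, with the block 0.0363) completed the 8. Over the alternatives their FDRs ranged from 2.45e-05, for COL16A1, to 1.00. The genes with lower means were not called: COL8A1 had 19.5 and 17.0 CPM with PBS and 11.5 and 12 with cetuximab (-0.68 ± 0.37, FDR 0.686), and COL2A1 had 0.736 and 1.19 CPM with PBS and 0.175 and 0.508 with cetuximab (-1.52 ± 0.56, FDR 0.466). Of the fibroblast markers of SCC1, FAP had 10.3 and 9.29 CPM with PBS and 19.0 and 16.7 with cetuximab, and its part in the collagen levels was not tested.

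In SCC25, none of the 36 tested collagens passed in edgeR, as none of all genes tested did (0%), 14 had an unadjusted p under 0.05, and DESeq2 called 1 (COL8A1; 0.639% of all genes). With the replicate block 6 rose and none fell, where 0.978% of all genes were called (0.771% higher). The median log2 fold change of the collagens was 0.79, against -0.01 for all genes. In 19 of 36 collagens both cetuximab samples lay above both PBS samples and in 3 below, against 16.3% and 12.9% of all genes.

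COL8A1 had 4.22 and 4.42 CPM in SCC25 PBS and 12.6 and 11.6 with cetuximab (1.45 ± 0.38, FDR 0.473, with the block 0.041). COL6A1 had 10.3 and 10.1 CPM with PBS and 25.3 and 20.6 with cetuximab (1.14 ± 0.34, FDR 0.611, with the block 0.0267). COL6A2 had 12.2 and 12.5 CPM with PBS and 36.0 and 24.3 with cetuximab (1.26 ± 0.36, FDR 0.589, with the block 0.0389). PBS replicates of these 3 genes lay close together and well below the cetuximab samples. COL5A2 had 20.7 and 12.7 CPM with PBS and 57.7 and 27.9 with cetuximab (1.34 ± 0.41, FDR 0.611, with the block 0.017). COL4A1 had 29.6 and 12.4 CPM with PBS and 60.9 and 37.2 with cetuximab (1.21 ± 0.49, FDR 0.797, with the block 0.017), and COL4A5 had 6.45 and 4.49 CPM with PBS and 12.3 and 9.57 with cetuximab (0.98 ± 0.40, FDR 0.82, with the block 0.0473). Over the alternatives the FDR of these 6 genes ranged from 0.017 to 1.00. For COL5A2, COL4A1 and COL4A5 replicate 1 was the higher of the samples in both treatments. The summed fibroblast markers of SCC25 were 13.4 to 33.7 CPM with PBS and 24.6 to 63.5 with cetuximab, mostly LUM, and their part in the collagen levels was not tested.

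**Figure D4:**
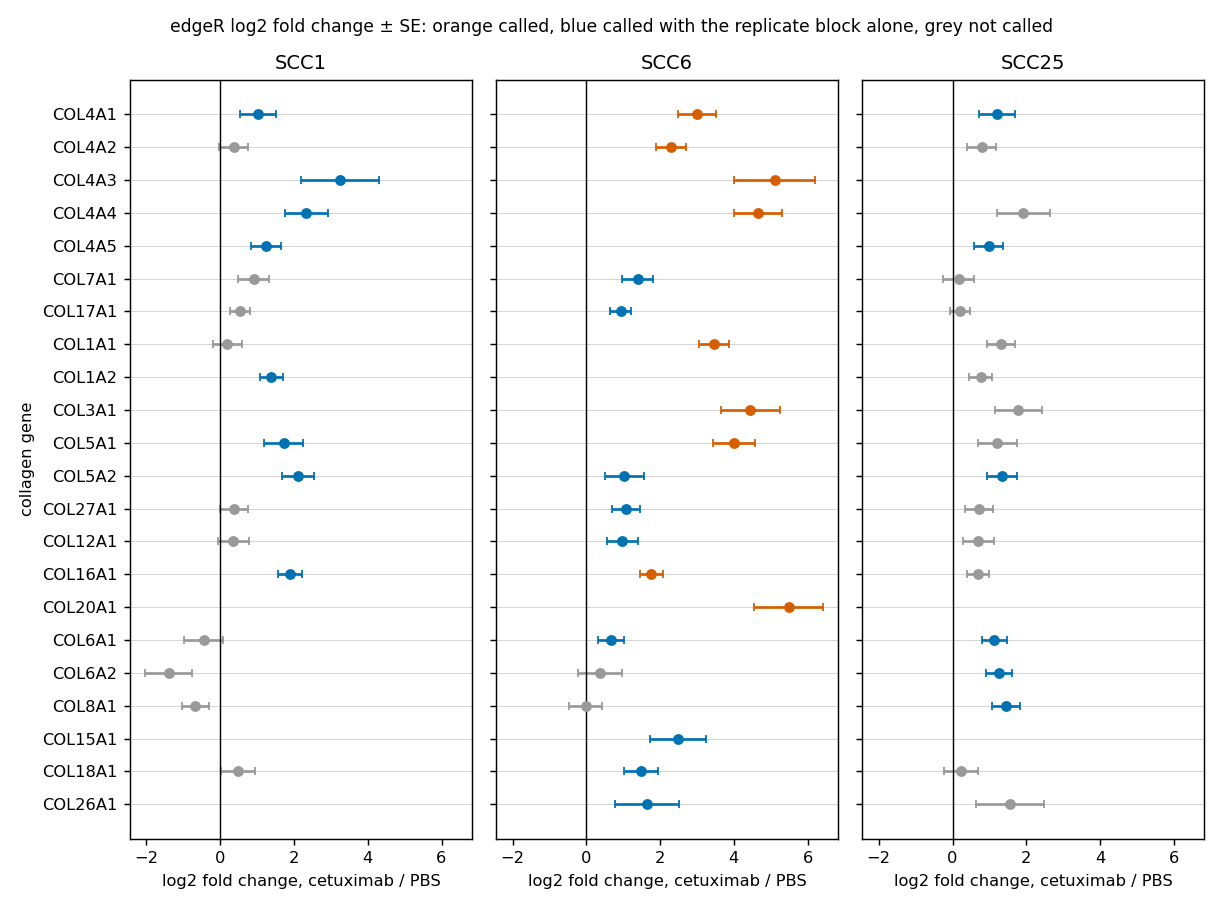
Log2 fold change of cetuximab minus PBS (x axis, ± SE) for collagen genes (y axis) in SCC1, SCC6 and SCC25, in separate panels on 1 scale. Orange points passed in edgeR, blue points passed in edgeR with the replicate block alone, and grey points passed in neither fit. In SCC6 9 genes are orange, and all orange and blue points of the 3 lines lie to the right of 0.

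Fitted across the 3 lines, 8 of 36 collagens rose with cetuximab and none fell (3.67% of all genes called, 2.53% higher). The log2 fold change was 1.44 ± 0.23 for COL16A1 (FDR 0.0116), 3.10 ± 0.51 for COL4A4 (FDR 0.0122), 1.56 ± 0.27 for COL5A2 (FDR 0.0141) and 1.16 ± 0.24 for COL1A2 (FDR 0.0246). It was 3.75 ± 0.75 for COL4A3 (FDR 0.022), 2.92 ± 0.60 for COL3A1 (FDR 0.0243), 2.28 ± 0.48 for COL5A1 (FDR 0.0268) and 1.73 ± 0.38 for COL4A1 (FDR 0.0312). COL16A1, COL4A4 and COL5A2 passed in all 20 alternatives, and each of the other 5 was lost on leaving out 1 of 3 to 8 samples, with FDRs up to 0.0852. The median log2 fold change was 0.74 over the collagens and 0.01 over all genes tested. With the replicate block 17 collagens rose (11.6% of all genes called, 6.03% higher). The added ones were COL4A5 (1.11 ± 0.27, FDR 0.0596, with the block 0.00896), COL4A2, COL4A6, COL7A1, COL12A1, COL15A1, COL17A1, COL26A1 and COL27A1. All 6 type IV chains were thus among the 17. COL4A5 and COL4A6 had no UMI in SCC6, so their calls rest on SCC1 and SCC25. Counts were also low for COL4A3 in SCC25 (1 and 2 UMIs with PBS, 0 and 8 with cetuximab). The same held for COL1A2 in SCC6 (0 and 1 UMIs with PBS, 2 and 5 with cetuximab). COL3A1 in SCC1 had no UMI with PBS and 3 and 2 with cetuximab. Of the added genes, COL15A1 in SCC1 had no UMI with PBS and 4 and 3 with cetuximab. In SCC25 COL15A1 had 5 and 2 UMIs with PBS and 7 and 8 with cetuximab. COL26A1 in SCC1 had 0 and 1 UMIs with either treatment. DESeq2 called 15 collagens across lines (10.1% of all genes). Leaving out SCC1 PBS replicate 2 or SCC6 PBS replicate 2 left 3 collagens called, leaving out SCC1 cetuximab replicate 1 left 4, and leaving out SCC6 cetuximab replicate 2 left 5.

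The interaction of line and treatment asked whether cetuximab acted differently on the collagens of the 3 lines. No collagen passed in edgeR, as none of all genes tested did (0%), and 11 had an unadjusted p under 0.05. With the replicate block 5 passed (1.29% of all genes): COL4A1, COL4A2, COL1A1, COL18A1 and COL8A1. DESeq2 called 3 (1.67% of all genes): COL1A1, COL8A1 and COL5A1. Leaving out SCC6 PBS replicate 2 left COL1A1 as the 1 collagen called in edgeR. The log2 fold changes of COL1A1 in SCC1, SCC6 and SCC25 were 0.20, 3.45 and 1.31, those of COL4A2 0.36, 2.30 and 0.79, and those of COL18A1 0.47, 1.48 and 0.23. For COL8A1 they were -0.68, -0.02 and 1.45. COL9A3, which is high in SCC1 and SCC25, had -0.60 ± 0.29 in SCC25, 0.03 ± 0.29 in SCC1 and 0.83 ± 0.35 in SCC6, and passed no test of cetuximab or of the interaction.

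Chains that assemble into 1 molecule were compared by the ratio of their CPM. The ratio of COL4A1 to COL4A2, whose products join in the proportion of 2 chains to 1, was 0.388 and 0.377 in SCC6 PBS and 0.618 and 0.632 with cetuximab. It was 0.428 and 0.315 in SCC1 PBS and 0.651 and 0.535 with cetuximab, and 0.727 and 0.654 in SCC25 PBS and 0.941 and 0.940 with cetuximab. In each line both cetuximab ratios lay above both PBS ratios. The ratio of COL1A1 to COL1A2 went the other way in SCC1, from 0.574 and 0.640 with PBS to 0.352 and 0.202, and was 3.29 and 4.27 in SCC25 PBS and 5.93 and 4.76 with cetuximab. The ratio of COL4A5 to COL4A6 was 1.11 and 0.884 in SCC1 PBS and 1.61 and 1.36 with cetuximab, and 2.13 and 2.33 in SCC25 PBS and 2.44 and 2.80 with cetuximab. COL6A1 and COL6A2 stood at 0.845 and 0.810 in SCC25 PBS and 0.703 and 0.847 with cetuximab. COL5A1 to COL5A2 gave 0.592 to 0.996 in SCC1 and 1.65 to 2.66 in SCC25, with overlapping groups.

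To see how many cells held these transcripts, each cell was thinned to 15000 UMIs and a cell with 1 UMI or more was counted as positive. COL4A1 was found in 17.8% ± 0.374 (SD, n = 2) of the PBS cells of SCC6 and 75.9% ± 6.28 of its cetuximab cells. COL4A2 went from 37.8% ± 2.77 to 88.4% ± 4.85, and COL5A1 from 8.34% ± 4.92 to 73.0% ± 8.18. COL1A1 went from 2.37% ± 1.53 to 22.4% ± 2.87 and COL4A4 from 0.512% ± 0.0307 to 11.4% ± 5.62. COL3A1 remained rare, at 2.53% ± 0.900 of the cetuximab cells. Without thinning, the SCC6 shares were 35.9% and 92.2% for COL4A1, 65.2% and 97.3% for COL4A2, 17.8% and 91.5% for COL5A1, and 5.57% and 40.3% for COL1A1. PTPRC, CD3E, ALB and HBB, which squamous cells should lack, were found in at most 0.137% of the thinned cells of any sample.

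In SCC25, COL5A1 was found in 36.5% ± 10.8 of PBS cells and 60.5% ± 4.60 of cetuximab cells, and COL6A2 in 15.1% ± 0.167 and 32.3% ± 6.27. COL8A1 was found in 5.69% ± 0.0930 and 13.9% ± 1.67 of SCC25 cells. In SCC1, COL5A2 was found in 4.15% ± 1.47 of PBS cells and 15.4% ± 3.09 of cetuximab cells, COL1A2 in 6.64% ± 1.55 and 13.5% ± 1.91, and COL16A1 in 3.28% ± 0.102 and 12% ± 5.07. COL17A1 was in 43.4% ± 3.64 and 51.6% ± 1.93 of SCC1 cells and in 54.6% ± 8.71 and 60.4% ± 13.2 of SCC25 cells. A thinned SCC6 PBS cell held 1.45 and 1.70 collagen UMIs on average in the 2 samples, with a median of 1 collagen gene, and an SCC6 cetuximab cell 10.4 and 7.90, with medians of 5 and 4 genes.

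**Figure D5:**
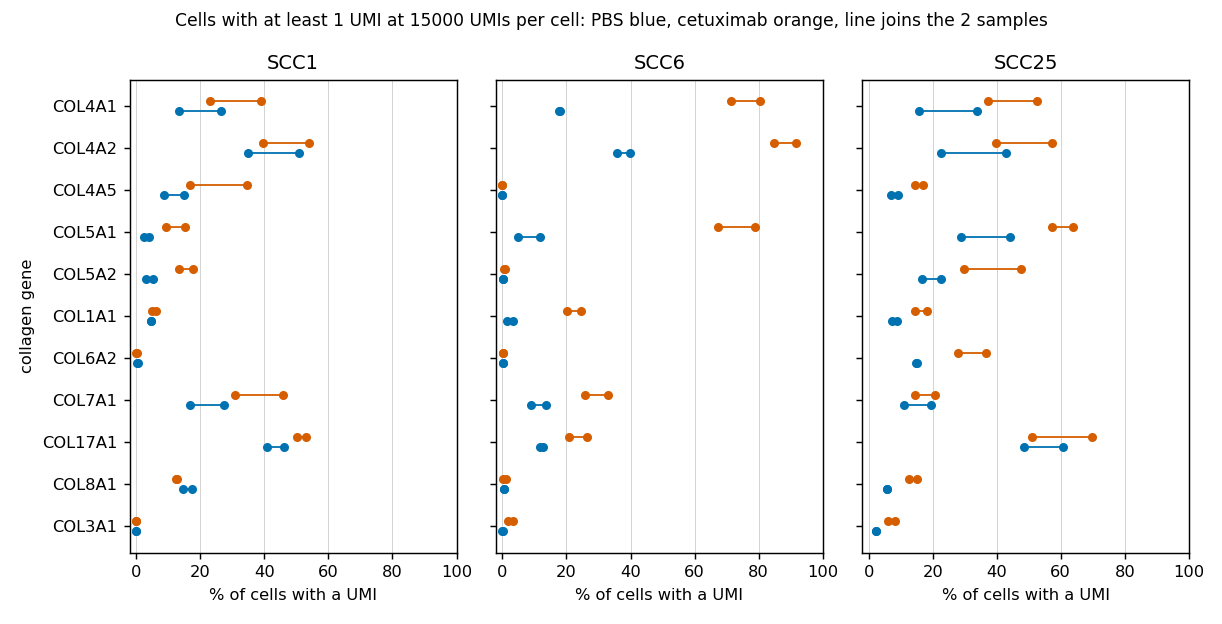
Percentage of cells with at least 1 UMI (x axis) for 11 collagen genes (y axis) at 15000 UMIs per cell, in 1 panel per line; blue points are PBS and orange points cetuximab samples. In SCC6 the COL4A1 share moves from 17.8% to 75.9% and the COL5A1 share from 8.34% to 73.0% (means of 2 samples).

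The UMIs of some collagens came from few cells. The 1% of cells with most COL1A2 UMIs held 39.6% to 55.7% of them in the SCC25 samples and 22.0% to 28.6% in the SCC1 samples, and a single SCC1 cetuximab cell held 104. For COL3A1 that share was 23.6% to 61.5% in the SCC6 cetuximab and SCC25 samples. For COL4A2, which is present in far more cells, it was 4.37% to 7.31%. This share also depends on how many UMIs a gene has. In SCC1 PBS, COL1A2 gave 24.4% and 22.0% at 336 and 419 UMIs. COL5A1 gave 22.8% and 27.1% there at 254 and 122 UMIs, so COL1A2 did not stand out from it. In SCC25 PBS replicate 1, COL1A2 gave 52.3% at 153 UMIs and COL9A2 20.3% at 212. Across thinned cells within a sample, COL4A1 and COL4A2 correlated with Pearson r of 0.521 in SCC1 cetuximab replicate 1 (938 cells), 0.366 and 0.385 in the SCC6 cetuximab samples (2592 and 1639 cells) and 0.217 and 0.250 in the SCC25 cetuximab samples (1920 and 1993 cells). COL4A2 and COL17A1 gave 0.0293 and -0.0253 in the SCC25 cetuximab samples, against 0.363 and 0.269 in SCC1 cetuximab. Some other pairs came close to the values of COL4A1 and COL4A2 or passed them. COL4A1 and COL5A1 gave 0.247 and 0.395 in the SCC6 cetuximab samples, and COL17A1 and COL5A1 0.249 and 0.276 in SCC25 cetuximab. In SCC1 cetuximab replicate 1 the other pairs compared gave 0.270 to 0.419. Cells of a sample share their library and vary in quality, and these values are descriptions.

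The genes that modify, fold, process, cross-link and bind collagen were read from lists of their own. In SCC6, edgeR called none of 15 genes of prolyl and lysyl modification, none of 6 of folding and export, 1 of 7 tested genes of procollagen processing, none of 5 cross-linking genes and 2 of 6 receptors, where 3.81% of all genes tested were called. These were BMP1, which trims the ends of fibrillar procollagens, at 10.9 and 11.5 CPM with PBS and 35.4 and 33.3 with cetuximab (1.38 ± 0.22, FDR 0.0115), and the collagen-binding integrins ITGA11 (2.36 ± 0.50, FDR 0.031) and ITGA1 (1.38 ± 0.31, FDR 0.0367). ITGA11 was low, at 0.0697 and 0.0973 CPM with PBS and 0.368 and 0.645 with cetuximab. ITGA1 had 0.488 and 0.846 CPM with PBS and 2.11 and 1.96 with cetuximab. The median log2 fold changes of these 5 lists in SCC6 were 0.16, 0.36, 0.27, 0.99 and 0.26, against 1.40 for the collagens.

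With the replicate block, 4 of 15 modification genes rose in SCC6 (P3H1, PLOD2, P3H4 and P3H2), as did 2 of 6 folding genes (FKBP14 and the collagen chaperone SERPINH1) and 2 of 5 cross-linking genes (LOXL2 and LOX), where 20.1% of all genes tested were called and 9.94% were higher. Of the processing genes BMP1 and TLL1 rose and PCOLCE2 fell, in SCC1 (4.45% of all genes called) as in SCC6. TLL1 was low in SCC6, at 0.0797 and 0.136 CPM with PBS and 0.250 and 0.456 with cetuximab. LOX had 4.06 and 7.20 CPM in SCC6 PBS and 15.9 and 25.6 with cetuximab (1.67 ± 0.50, FDR 0.0996, with the block 0.0213). In SCC1 and SCC25 edgeR called none of these 39 tested genes without the block. In SCC25 LOXL2 rose with the block (1.27 ± 0.34, FDR 0.526, with the block 0.0323; 0.771% of all genes were higher).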

How the data were processed

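Droplet scRNA-seq of 12 samples (SCC1, SCC6 and SCC25, cetuximab or PBS, 2 replicates each) was used. The deposited tables hold raw UMI counts per gene and cell, which the authors made with Cell Ranger, and the processing notes of the submitters name GRCh38. Versions of the aligner and annotation, and how reads of near-identical genes were counted, are not given in the sources used here. Groups and replicate numbers came from the labels, and cells were mapped to samples by their names. Counts of repeated symbols were added, and all 23914 cells were used, without a doublet caller. The collagen genes and the other lists were chosen with earlier results of these data known, and no list is independent evidence.

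Sums of UMI counts per sample were compared, because cells are not replicates, in place of the cell-level test of the authors. Genes that passed filterByExpr (17897, with 36 of 44 collagens) entered edgeR 4.0.16 in R 4.3.3 (quasi-likelihood F-test, TMM factors, 6 group means, 6 residual degrees of freedom). P-values are two-sided, and FDRs are Benjamini-Hochberg values over all genes tested. The 8 collagens not tested had 0 to 41 UMIs in all samples. Log2 fold changes are scaled by TMM and CPM by total UMIs alone. Samples of equal replicate number deviated together (correlation of deviations over 17897 genes 0.377 in SCC1, 0.349 in SCC6 and 0.598 in SCC25). A fit with a replicate term in each line is therefore given where it changes a call. For the comparisons between PBS samples of different lines, a single replicate term shared by the lines was used instead. DESeq2 1.42.0, other scalings, filters on genes and cells, thinned totals and leaving out each sample were the other alternatives. The edgeR fit without a replicate term was run on simulated counts with known changes in SCC6, a fixed spread and no replicate effect. The fits with a replicate term and DESeq2 were not tested in this way.

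Random thinning to 15000 UMIs per cell kept 23063 cells and left out 851 (2.39% to 6.12% per group). Replicates of a group shared 3 to 10 cell barcodes and other samples 1 to 13. At 57057402 UMIs or more per sample counting error is small, and the limit of 3 counts for a level of 0 covers counting error only. Antisense genes of collagens (5) stayed at or under 0.0195 CPM. Named were the collagens that passed in any comparison, without or with the replicate term, the 8 of highest mean CPM in each line, and at most 4 genes per list and direction among the collagen modification, folding, processing, cross-linking and receptor genes that passed in a line. Starts, distances and promoters are from RefSeq tables for GRCh38.p14.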

Additional observations from a re-analysis of the deposited data

Results flagged for a closer look

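For 5 collagens the effect of cetuximab differed between the 3 lines by the interaction of line and treatment in edgeR with the replicate block (1.29% of all genes tested were called), and for none without it (0%). The FDR of the interaction was 0.0191 for COL4A1 (0.619 without the block), 0.0197 for COL4A2 (0.536), 0.0347 for COL1A1 (0.271), 0.0431 for COL18A1 (0.874) and 0.0491 for COL8A1 (0.453). Over 20 alternatives it ranged from 0.000119 to 0.792 for COL1A1 and from 0.0171 to 1.00 for COL8A1. COL4A1, COL4A2, COL1A1 and COL18A1 had their largest log2 fold change in SCC6.

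COL8A1 also went opposite ways in 2 lines, above both PBS samples in both cetuximab samples of SCC25 and below both in SCC1. COL2A1 and COL6A2, the latter at or under 0.228 CPM in SCC1, did the same. Of all genes tested, 16.3% lay above in SCC25 and 17.3% below in SCC1, and the share doing both was not counted. The lower level of COL8A1 in SCC1 was not called in edgeR. The log2 fold changes of COL8A1 in the 2 lines differed by 2.13, and this pair of lines was not tested on its own.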

How the results depend on the processing

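Of 166 counts of called collagens under an alternative, 141 stayed within 1.5 times the reported count, and no called log2 fold change of a collagen reversed. With the replicate block 8 collagens passed in SCC1 (0 without), 18 in SCC6 (9), 6 in SCC25 (0), 17 across lines (8) and 5 for the interaction (0), and with a replicate term shared by the lines 3, 15 and 1 in SCC1, SCC6 and SCC25. For the line comparisons of PBS samples, where the replicate term was shared by the lines, the counts stayed within 1.5 times. The block with a term in each line leaves 3 residual degrees of freedom in the fits within lines and of the interaction. Without a filter on low counts 6 collagens passed in SCC1, 1 in SCC25, 15 across lines and 3 for the interaction, and with DESeq2 4, 1, 15 and 3. No share of all genes is given for the fits without the filter or for the shared term within lines. Those counts are therefore not set against other genes. DESeq2 size factors, thinned totals, fits of 1 line alone, and leaving out cells with most UMIs, with many mitochondrial UMIs or with genes of another line kept every count within 1.5 times. Leaving out 1 sample gave 0 to 1 called collagens in SCC1, 1 to 9 in SCC6, 0 in SCC25, 3 to 11 across lines and 0 to 1 for the interaction, and 13 to 17, 16 to 22 and 18 to 22 for the PBS comparisons SCC6 with SCC1, SCC25 with SCC1 and SCC25 with SCC6. The cause of these shifts was not tested. Depth limits the 8 collagens with 0 to 41 UMIs in all samples, which were not tested.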

Other observations

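COL4A5 and COL4A6 are neighbours on the X chromosome, and the genes around them were looked at after their values were seen. In the gene order of RefSeq, a run of 24 neighbouring genes from TEX13A to GUCY2F had at most 0.05 CPM in every SCC6 sample. Together they had 16 UMIs in the 4 SCC6 samples and 103513 in the 8 samples of the other lines. Of the 24 genes, 11 had 1 CPM or more in all 8 of those samples: TBC1D8B, MORC4, RBM41, NUP62CL, PRPS1, TSC22D3, MID2, PSMD10, ATG4A, COL4A6 and COL4A5. Among all 10939 genes at 1 CPM or more in those 8 samples, 53 (0.485%) were at or under 0.05 CPM in every SCC6 sample. PSMD10 had a mean of 35.2 CPM in SCC1 PBS and 37.9 in SCC25 PBS, and PRPS1 27.0 and 22.4. NXT2, the next gene after the run, had a mean of 4.42 CPM in SCC6. IL1RAPL2, the gene before the run, had a mean of 0.0391 CPM there, so that end of the run rests on the limit of 0.05 CPM. What sets this stretch apart in SCC6, including its DNA content, was not tested.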
